A study of Mus musculus with 40 samples.

Results

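Day 7 was compared with day 6 in aggregates of mouse embryonic stem cells that had been exposed to XAV939. XAV939 inhibits the tankyrases, which stabilises Axin and lowers Wnt/beta-catenin signalling. The 8 libraries, 4 of each day, were taken from a series of 40 libraries in 10 groups by the day, arm and replicate number in their labels. All cells were of 1 line, CGR8 of strain 129, gathered into epiblast-like aggregates in serum-free N2B27 medium with Activin-A, Fgf2 and KSR. XAV939 was given from 0 to 72 h, so that both days lie after its removal. A further 8 libraries, of untreated aggregates at day 7 and day 6, are used at the end. Untreated libraries are labelled as grown without matrigel, which XAV939 labels leave unmentioned, so matrigel and XAV939 cannot be told apart as a difference between the arms. Whether the replicates were cultured separately is not in the labels, and p-values then measure only the spread between these libraries.

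Cells of the caudal epiblast supply the growing trunk. They are kept by Wnt and FGF signals and carry Cdx, Nkx1-2 and brachyury (T), and their descendants turn into presomitic mesoderm, which is cut into somites by an oscillating clock, or into neural tube. Neural progenitors in turn leave the cell cycle under proneural basic helix-loop-helix (bHLH) factors and become neurons. In RNA of whole aggregates a lower level of a marker can mean fewer cells of a type or less RNA per cell, and these cannot be told apart.

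From day 6 to day 7 genes of the caudal epiblast, the presomitic mesoderm and the pluripotent state fell, and genes of newly formed neurons, motor neurons, vessels, sclerotome and connective tissue rose. Of 26906 genes that were deposited with counts, 16878 were tested, and edgeR's quasi-likelihood test with Benjamini-Hochberg adjustment called 709 higher at day 7 (4.2% of those tested) and 500 lower (2.96%) at an adjusted p below 0.05. Of these calls, 558 higher and 291 lower genes changed at least 2-fold, a log2 fold change of 1, and 268 and 120 by a log2 fold change of at least 2. The median log2 fold change over all genes tested was -0.0017. In 1276 genes (7.56%) all 4 day 7 libraries stood above all 4 day 6 libraries, and in 1543 (9.14%) all stood below. Libraries of the 2 days with the same replicate number deviated together from their group means (correlations of 0.635, 0.381, 0.35 and 0.224 for replicates 1 to 4), so the number pairs them. With the replicate number as a block in a fit of the 8 libraries 2484 genes were called higher (14.7%) and 1979 lower (11.7%), among them 1190 of the 1209 genes called without it (98.4%), and all 1209 kept their direction. Both fits compare the same 8 libraries of these days, so the kept direction is no separate support. Calls below are those of the fit without the block unless the block is named. The block then named is that of the 8 libraries, so the block and the set of libraries changed together. With the block in the fit of all libraries 995 genes were called higher and 769 lower. A fit of only the 8 libraries, without the block, kept 836 of the 1209 calls, lost 373 and gained 388. Of the genes named below, 16 lost their call in it, namely Wnt8a, Cdx4, Il17rd, Zic2, Nhlh1, Nhlh2, Nefl, Dcx, Srrm4, Tubb3, Cntn2, Dll4, Ppp1r17, St18, Clvs1 and Gsx1 (adjusted p 0.0532 to 0.25), and Pax6 gained one (adjusted p 0.0291).

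**Figure D1:**
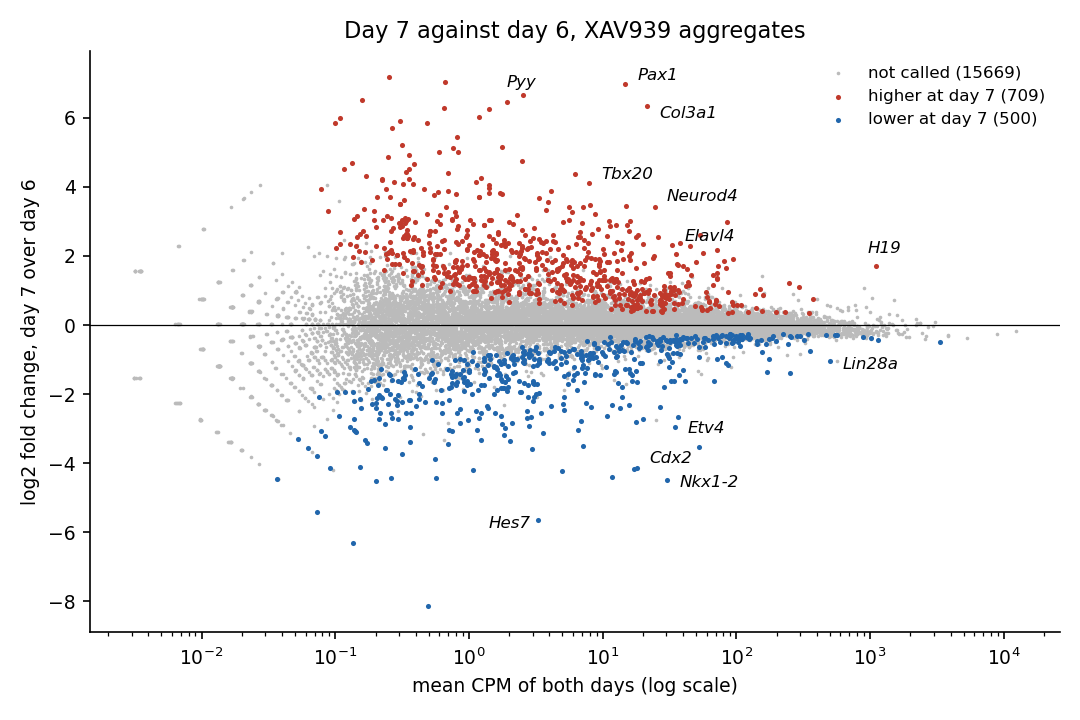
Log2 fold change of day 7 over day 6 against the mean CPM (counts scaled to the library total) of both days on a log scale, for 16878 genes tested in XAV939 aggregates. Red points are the 709 genes called higher at day 7 and blue points the 500 called lower; Pax1, Pyy and Col3a1 lie highest among the labelled genes, and Hes7 lies lowest.

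The libraries were of even depth, with totals of 33515103 to 38423113 counts, but they did not vary evenly. On a principal component analysis of log2 CPM the first component (49.3% of the variance) separated the days, with values of 15.3 to 48.7 at day 7 and -65.9 to -15.4 at day 6. The second (21.5%) set replicate 1 apart, at 44.6 at day 7 and 45.1 at day 6, against -28.3 to 7.45 in the other 6 libraries. Replicate 1 also had the smallest share of mitochondrially encoded counts, 1.21% at day 7 against 2.41 to 2.51% in the others, and 1.57% at day 6 against 2.59 to 3.07%. Replicate 3 held the day 7 library nearest to day 6 on the first component and the day 6 library farthest from day 7. Summed over 20 caudal epiblast genes day 6 library 3 held 696 CPM, against 339 to 394 CPM in the other day 6 libraries, and the day 7 libraries held 181 to 222 CPM.

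Caudal epiblast genes fell. Of 20 tested genes of the primitive streak and caudal epiblast, all had negative log2 fold changes, with a median of -2.33, and 9 were called lower, 14 with the block. Nkx1-2 (chromosome 7, 132594878 to 132599637, mm10), a homeobox gene of the caudal epiblast and preneural tube, held 1.64, 1.26, 5.91 and 1.45 CPM in day 7 libraries 1 to 4, against 20.1, 28.1, 145 and 40.5 CPM in day 6 libraries 1 to 4. Its log2 fold change was -4.50 (SE 0.648, adjusted p 2.36e-05). The groups were far apart, and library 3 was the highest on both days. Cdx2 (chromosome 5, 147300805 to 147307270), a caudal homeobox factor upstream of trunk Hox genes, had 0.832, 2, 3.53 and 1.48 CPM at day 7 and 15.5, 21, 72.9 and 28.1 CPM at day 6 (log2 -4.12, SE 0.76, adjusted p 0.000618). Its paralogues moved with it. Cdx1 averaged 1.04 ± 1.24 CPM at day 7 and 22.2 ± 24.9 CPM at day 6 (SD, n = 4 each), and X-linked Cdx4 1.15 ± 2.05 and 13.2 ± 10.2 CPM. Wnt8a, a Wnt ligand of the streak, changed by -4.18 in log2 terms (SE 0.741, adjusted p 0.000333), with 0.139 to 5.71 CPM at day 7 and 12.1 to 75.6 CPM at day 6. Eomes, a T-box factor of streak and mesendoderm, fell to 1.74 ± 1.08 CPM at day 7, against 12 ± 5.33 CPM at day 6 (adjusted p 0.000736). Brachyury did not follow them. T held 21.5, 64.7, 40.3 and 34.4 CPM at day 7, against 36.3, 105, 56.6 and 66.8 CPM at day 6, and the groups overlapped (log2 -0.72, SE 0.702, adjusted p 0.653). Each replicate was lower at day 7, and with the block T was called (log2 -0.71, adjusted p 0.000388).

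Leaving out library 3 changed the size of these falls and not their direction. Without day 6 library 3 the log2 fold change was -3.51 for Nkx1-2, -3.45 for Cdx2 and -3.32 for Wnt8a, all still called, and -3.22 for Cdx1 and -2.82 for Cdx4, whose calls ended (adjusted p 0.0768 and 0.0564). Without day 7 library 3 it was -5.33 for Nkx1-2, -5.70 for Cdx1, -6.18 for Wnt8a and -6.63 for Cdx4. Without replicate 3 of both days the falls of Wnt8a and Cdx4 were -5.32 and -5.96, and without replicate 4 that of Cdx4 was -3.17 and was not called (adjusted p 0.0576). Without replicate 1 the caudal list had 10 members called lower and a median of -2.83. It had 5 and a median of -1.65 without day 6 library 3, and 6 and a median of -1.55 without replicate 3. Over the 5 sampled days these genes were transient: Nkx1-2 averaged 0.588, 54.6, 218, 58.5 and 2.56 CPM at days 3 to 7, and Cdx2 0, 0.15, 21.6, 34.3 and 1.96 CPM.

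**Figure D2:**
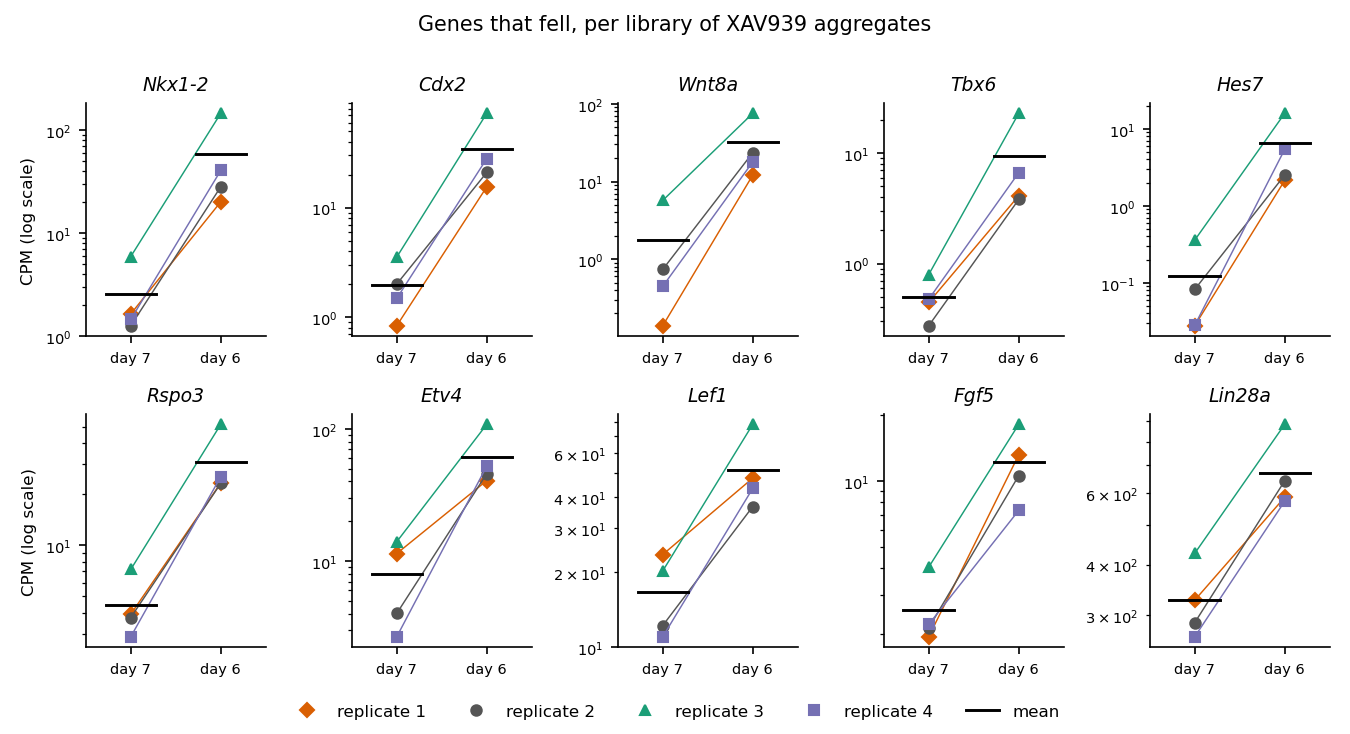
CPM on a log scale of 10 genes that fell, at day 7 (left) and day 6 (right), in XAV939 aggregates. Symbols mark replicates 1 to 4, thin lines join libraries with the same number and black bars are group means; every line runs lower at day 7 and replicate 3 is the highest at day 6 in each panel.

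Presomitic genes fell as steeply. Of 14 tested presomitic mesoderm and segmentation genes 13 had negative log2 fold changes, with a median of -2.77, and 6 were called lower, 8 with the block. Hes7 (chromosome 11, 69120404 to 69124055), the bHLH repressor at the core of the segmentation clock, had the largest fall of the called genes that averaged 5 CPM or more at day 6. It held 0.0277, 0.082, 0.358 and 0.028 CPM at day 7, against 2.14, 2.51, 15.9 and 5.42 CPM at day 6 (log2 -5.63, SE 0.979, adjusted p 0.000273). Tbx6, the T-box factor that commits cells to presomitic mesoderm, had 0.444, 0.273, 0.793 and 0.475 CPM at day 7 and 4.11, 3.8, 22.9 and 6.64 CPM at day 6 (log2 -4.22, SE 0.849, adjusted p 0.00123). Mesp2, which sets somite borders, fell by 3.35 (SE 0.554, adjusted p 0.000135) and Rspo3, a secreted amplifier of Wnt signalling, by 2.80 (SE 0.403, adjusted p 2.36e-05). Rspo3 held 2.88 to 7.19 CPM at day 7 and 23.2 to 51.7 CPM at day 6, and no left-out library moved its fold by more than 1.5 times. Without day 6 library 3 the log2 fold change was -4.68 for Hes7, -3.27 for Tbx6 and -2.70 for Mesp2, and without day 7 library 3 it was -7.03 for Hes7. Without replicate 3 of both days it was -3.60 for Tbx6. The calls of these 3 genes held in each case.

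The promoter of Hes7 is shown because Hes7 had the largest of these falls. It spans chr11:69120203-69120502 on the plus strand (GRCm38.p6, RefSeq) and is printed 5′ to 3′ with a CDX-type motif, TTTATGG, and a match on the other strand to GTGGGAA, the core bound by the Notch effector CSL, in capitals.
Hes7 promoter: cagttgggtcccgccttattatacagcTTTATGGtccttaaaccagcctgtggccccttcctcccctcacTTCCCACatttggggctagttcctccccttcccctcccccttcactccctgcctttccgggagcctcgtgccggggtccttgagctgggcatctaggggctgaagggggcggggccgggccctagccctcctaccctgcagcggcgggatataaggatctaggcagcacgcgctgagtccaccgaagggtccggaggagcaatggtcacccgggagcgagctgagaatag
Of 32851 mouse promoters of this length 6.38% hold GTGGGAA and 2.75% hold TTTATGG on either strand. The CSL core was found in 2 of the 5 called presomitic genes with a promoter in the table and the CDX-type motif in 1 of the 12 called caudal or presomitic genes. These matches describe letters only, and no factor's binding was measured.

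Genes downstream of the FGF and Wnt signals were lower as well. Of 20 tested ERK feedback and FGF response genes 7 fell and 0 rose (median log2 fold change -0.63, 12 lower and 1 higher with the block). Etv4, an ETS factor induced by FGF signalling, held 11.4, 4.02, 14 and 2.68 CPM at day 7, against 40.6, 45.8, 108 and 52.2 CPM at day 6 (log2 -2.94, SE 0.45, adjusted p 4.63e-05). The ligand gene Fgf4 fell by 2.99 (SE 0.649, adjusted p 0.00267). Spry2, a feedback inhibitor of receptor tyrosine kinases, averaged 22.9 ± 11.8 CPM at day 7 and 56.6 ± 10.4 CPM at day 6 (adjusted p 0.00141), and Il17rd, another feedback inhibitor, 96.4 ± 62.5 and 245 ± 89 CPM (adjusted p 0.00524). Of 19 tested Wnt/beta-catenin target and feedback genes 6 fell and 0 rose, 9 and 3 with the block. Lef1, a nuclear partner of beta-catenin, held 23.5, 12.2, 20.2 and 11 CPM at day 7 and 47.6, 36.6, 78.2 and 43.3 CPM at day 6 (log2 -1.62, SE 0.332, adjusted p 0.00148). Notum, a secreted Wnt deacylase, fell by 2.70 (SE 0.558, adjusted p 0.00163), and by 3.42 without replicate 1 and 3.44 without day 7 library 1. Fgf4 had a log2 fold change of -2.37 without day 6 library 3 and of -2.14 without replicate 3, where its call ended (adjusted p 0.0892). That of Il17rd ended without replicate 4 (adjusted p 0.0778). The FGF list had 4 falls without day 6 library 3, day 7 library 2, day 7 library 4 or replicate 3, 2 without replicate 4 and 11 without day 7 library 1. The Wnt list had 2 without day 6 library 3, and 3 without day 7 library 2, 3 or 4 or without replicate 2, 3 or 4.

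Remnants of the pluripotent state declined further. Of 25 tested core and primed pluripotency genes 22 had negative fold changes (median -1.07), 9 fell and 0 rose, and with the block 19 fell and 2 rose. Lin28a, the RNA-binding protein that blocks let-7 maturation, held 327, 288, 426 and 266 CPM at day 7, against 585, 642, 883 and 572 CPM at day 6. Its log2 fold change was -1.04 (SE 0.144, adjusted p 1.7e-05), with no overlap between the days. Pou5f1, the gene of Oct4, had 1.64, 4.43, 3.61 and 2.29 CPM at day 7 and 9.88, 21.9, 31.4 and 11 CPM at day 6 (log2 -2.63, SE 0.654, adjusted p 0.00893), after a mean of 803 CPM at day 3. Fgf5, a marker of the primed epiblast, fell by 2.25 (SE 0.369, adjusted p 0.000117), Zscan10, a zinc-finger factor of stem cells, by 1.41 (SE 0.342, adjusted p 0.00717), and Tdgf1, the Nodal co-receptor, by 3.13 (SE 0.757, adjusted p 0.00723). The call of Pou5f1 ended without day 6 library 3 (adjusted p 0.0571) or replicate 3 (0.0764). That of Zscan10 ended without day 6 library 3 (0.0735) or replicate 4 (0.0512), and that of Tdgf1 without replicate 3 (log2 -2.44, adjusted p 0.113). The list had 3 falls without day 6 library 3 or replicate 3 and 5 without replicate 4. Tdgf1 fell by 3.85 without day 7 library 2 and by 3.97 without replicate 2.

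Single factors outside these groups were also among the largest falls. Vgll3, a cofactor of TEAD transcription factors, held 1.64, 0.601, 2.56 and 0.923 CPM at day 7 and 10.7, 16.1, 7.64 and 12.4 CPM at day 6 (log2 -3.03, SE 0.488, adjusted p 9.26e-05, and -3.63 without replicate 3). Glp1r, the receptor of the incretin GLP-1, had 0.166 to 1.02 CPM at day 7 and 2.59 to 10 CPM at day 6 (log2 -3.60, SE 0.5, adjusted p 1.7e-05), and it fell by 4.43 without day 7 library 3. Hoxd1 was 1 of 2 genes called lower among 12 of Hox paralogue groups 1 to 4 (0 higher). Its log2 fold change was -2.84 (SE 0.511, adjusted p 0.000383), and -3.77 without day 7 library 3. With the block 3 genes of groups 1 to 4 were called higher and 4 lower. Hoxb4 and Hoxb9 stayed closer to their day 6 level and were not called with or without the block. Hoxb4 held 4.88, 13.1, 12.1 and 15.7 CPM at day 7, against 5.19, 7.88, 15.7 and 10.4 CPM at day 6 (log2 0.22, adjusted p 0.861). Hoxb9 of the trunk held 79.7, 71.8, 114 and 148 CPM at day 7 and 71, 73.1, 181 and 142 CPM at day 6 (log2 -0.17, adjusted p 0.907). Of 11 genes of paralogue groups 5 to 8, 1 rose and 0 fell, and of 5 genes of groups 9 to 13 none was called in edgeR's fit, with or without the block. Rarg, the gamma receptor of retinoic acid, averaged 10 ± 2.47 CPM at day 7 and 25.3 ± 11.6 CPM at day 6 (adjusted p 0.00228).

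Neuronal genes rose. Of 17 tested proneural and neuronal bHLH factors and their partners 12 rose and 1 fell, with a median log2 fold change of 2.0, and 14 rose with the block. Neurog2 (chromosome 3, 127633135 to 127635631), a proneural bHLH factor, had 8.98, 15, 6.29 and 19.3 CPM at day 7 and 2.22, 1.82, 0.648 and 1.75 CPM at day 6 (log2 2.94, SE 0.543, adjusted p 0.00062). Insm1, a zinc-finger factor of newborn neurons and intermediate progenitors, had 22.3, 23.9, 8.67 and 18.5 CPM at day 7, against 5.95, 2.26, 0.891 and 3.1 CPM at day 6 (log2 2.59, SE 0.392, adjusted p 3.97e-05). For both genes the days did not overlap, and library 3 was the lowest on each day. Neurod4, a bHLH factor of differentiating neurons, rose by 3.40 (SE 0.681, adjusted p 0.00117), Neurod1 by 2.52 (SE 0.487, adjusted p 0.000834) and the zinc-finger factor Myt1 by 2.78 (SE 0.529, adjusted p 0.000718). Nhlh1 and Nhlh2, bHLH factors of early neurons, held 7.52 to 26.1 and 7.29 to 32.8 CPM at day 7, against 0.162 to 7.46 and 1 to 8.06 CPM at day 6 (log2 3.01 and 2.89, SE 0.596 and 0.558). The 1 member that fell was Olig3, outside the rule for named genes and chosen after its values were seen, which in the neural tube marks dorsal progenitors, with 1.01 ± 0.552 CPM at day 7 and 5.95 ± 3.95 CPM at day 6 (log2 -2.54, SE 0.543, adjusted p 0.00256). No left-out library or replicate moved the 12 rises outside 10 to 14. Without day 6 library 1 the log2 fold change was 4.12 for Neurod4, 3.55 for Myt1, 4.65 for Nhlh1 and 4.10 for Nhlh2, and without replicate 1 it was 4.23, 3.46, 4.62 and 3.85 for the same genes. Nhlh1 and Nhlh2 were among the genes picked for a larger rise without replicate 1.

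The promoters of Nhlh1 (chr1:172057547-172057846, minus strand) and Nhlh2 (chr3:102009895-102010194, plus strand; both GRCm38.p6, RefSeq) are shown because these paralogues rose together. They are printed 5′ to 3′ along the gene, with the letters CAGATG, an E-box of the kind that proneural bHLH factors bind, in capitals.
Nhlh1 promoter: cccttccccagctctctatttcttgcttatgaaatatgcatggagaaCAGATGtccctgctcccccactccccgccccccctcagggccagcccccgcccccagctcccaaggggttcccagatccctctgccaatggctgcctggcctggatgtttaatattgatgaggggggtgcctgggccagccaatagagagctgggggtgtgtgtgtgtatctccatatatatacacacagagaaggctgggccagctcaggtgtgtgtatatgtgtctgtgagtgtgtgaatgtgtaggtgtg
Nhlh2 promoter: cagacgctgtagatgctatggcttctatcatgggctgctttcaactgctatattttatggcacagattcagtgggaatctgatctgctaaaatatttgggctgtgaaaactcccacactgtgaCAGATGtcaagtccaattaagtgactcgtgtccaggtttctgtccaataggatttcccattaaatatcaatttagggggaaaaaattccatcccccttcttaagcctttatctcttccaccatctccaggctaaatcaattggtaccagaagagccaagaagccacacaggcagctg
Of the 10 called genes of the proneural list with a tabulated promoter 2 held this E-box on either strand, these being Nhlh1 and Nhlh2, and 17.2% of all 32851 promoters held it. The promoter of Nhlh2, which rose, also holds TTTATGG and GTGGGAA, the motifs marked for Hes7, which fell. They are left in lower case here.

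Genes of postmitotic neurons followed. Of 24 tested neuronal cytoskeleton and RNA-binding genes 12 rose and 1 fell (median 0.98, 15 and 1 with the block). Elavl4, an RNA-binding protein of neurons, had 62, 63.1, 25 and 69 CPM at day 7 and 19.6, 6.75, 4.13 and 13.9 CPM at day 6 (log2 2.30, SE 0.384, adjusted p 0.000157). Dcx, the microtubule protein doublecortin, had 115, 56.2, 23.9 and 58.2 CPM at day 7, against 34.2, 3.72, 2.35 and 8.28 CPM at day 6 (log2 2.38, SE 0.528, adjusted p 0.00316). The days overlapped for Dcx because day 6 library 1 stood above day 7 library 3. The light neurofilament gene Nefl rose by 1.77 (SE 0.382, adjusted p 0.00256) and Srrm4, a neural splicing factor, by 1.33 (SE 0.299, adjusted p 0.0036). Tubb3, the neuronal beta-tubulin, held 198, 130, 29.2 and 89.7 CPM at day 7 and 81.7, 16.4, 12.6 and 26.2 CPM at day 6 (log2 1.71, SE 0.486, adjusted p 0.0245). Stmn2, a growth-cone protein, held 108, 56.1, 22.4 and 40.9 CPM at day 7 and 50.9, 27.3, 26.7 and 16.7 CPM at day 6 and was not called (log2 0.90, adjusted p 0.169). Summed over the list, library 1 was the highest on both days, with 2960 CPM at day 7 against 1100 to 1770 CPM in the others, and 1620 CPM at day 6 against 668 to 1030 CPM. Without day 6 library 1 the log2 fold change was 3.72 for Dcx, 2.45 for Nefl and 2.60 for Tubb3, and Stmn2 was called (1.27, adjusted p 0.0489). Without replicate 1 that of Dcx was 3.27, and without day 7 library 1 that of Nefl was 1.16. The call of Tubb3 ended without any one of day 6 libraries 2, 3 and 4 or day 7 libraries 1 and 2 (adjusted p 0.069 to 0.135), and without replicate 2 (0.202) or 4 (0.107), and that of Srrm4 ended without replicate 2 (0.0531). The list had 6 rises without day 7 library 1 or replicate 4 and 4 without replicate 2.

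Motor neuron genes showed the same direction without exception among the calls. Of 18 tested, 9 rose and 0 fell, the same counts with the block. The LIM-homeobox genes Lhx3 and Lhx4, which specify motor neurons, averaged 3.42 ± 2.79 and 3.79 ± 3.04 CPM at day 7, against 0.0919 ± 0.032 and 0.04 ± 0.0355 CPM at day 6. Lhx3 rose 35.7-fold (adjusted p 1.97e-06), with 1.33, 4.62, 0.947 and 6.8 CPM at day 7. Isl1, a LIM factor of motor neurons, sensory neurons and heart precursors, had 25.8, 38.3, 12.8 and 30.1 CPM at day 7, against 8.34, 2.18, 2.19 and 1.67 CPM at day 6 (log2 2.89, SE 0.446, adjusted p 4.98e-05). Tbx20, a T-box factor of cranial motor neurons and of heart, had 13.5, 25.4, 10 and 10.6 CPM at day 7, against 1.03, 1.27, 0.297 and 0.834 CPM at day 6 (log2 4.11, SE 0.49, adjusted p 1.97e-06). The log2 fold change of Isl1 was 3.73 without day 6 library 1 and 3.75 without replicate 1.

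Calls in the other neuronal lists were mostly rises, but few in the synapse and Notch lists. Over all genes tested 4.2% were called higher and 2.96% lower. No result is read from the counts of the synapse and Notch lists. Of 27 interneuron genes 7 rose and 0 fell, 11 and 2 with the block, and 6 and 1 without replicate 1. Gata2, given below with vessel genes, is also a member of this list. The zinc-finger gene Prdm8 was among the rises (log2 2.68, SE 0.464, adjusted p 0.000266). The list was split, with 14 positive and 13 negative log2 fold changes. Its sum over 31 genes was 53.8 to 87.6 CPM at day 7 and 43.8 to 93.9 CPM at day 6. Of 32 axon guidance genes 9 rose and 1 fell, with 3 rises without replicate 2 and 4 without replicate 4. The netrin receptor genes Unc5a and Unc5d rose by 1.89 (SE 0.421, adjusted p 0.00334) and 1.25 (SE 0.253, adjusted p 0.00135). Cntn2, an adhesion molecule of commissural and motor axons, rose by 2.72 (SE 0.537, adjusted p 0.00103), but its pairs of libraries were uneven and it was not called with the block (log2 2.39, adjusted p 0.155). Of 23 genes of the synapse 2 rose and 1 fell, and 11 rose with the block. The synapse list had 7 rises without day 6 library 1, 4 without day 7 library 3 or replicate 1, and 1 without day 7 library 1 or replicate 2. Gria2, an AMPA receptor subunit, had 3.38, 2, 2.2 and 2.35 CPM at day 7 and 1.06, 0.11, 0.243 and 0.781 CPM at day 6 (log2 2.16, SE 0.479, adjusted p 0.00316). In the Notch pathway (23 genes, 2 higher and 1 lower) the ligand gene Dll4 rose by 2.60 (SE 0.524, adjusted p 0.00122) and the target Heyl by 2.41 (SE 0.337, adjusted p 1.71e-05), while the fall was that of Hes7. The Notch list had 4 rises without day 6 library 1. Dll4 rose by 3.38 without day 6 library 1 and by 3.29 without replicate 1. Dll1, another Notch ligand, was at 71.9 ± 13.7 CPM at day 7 and 86.4 ± 23.5 CPM at day 6 (adjusted p 0.786). Hes5, a Notch target of neural progenitors, held 42.5, 13.9, 9.65 and 19.7 CPM at day 7 and 19.4, 4.52, 4.3 and 6.9 CPM at day 6. It was higher at day 7 in each replicate and was called with the block (log2 1.37, adjusted p 7.86e-05) or without day 6 library 1 (2.03, adjusted p 0.0432), not in the fit of all libraries (1.28, adjusted p 0.217).

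**Figure D3:**
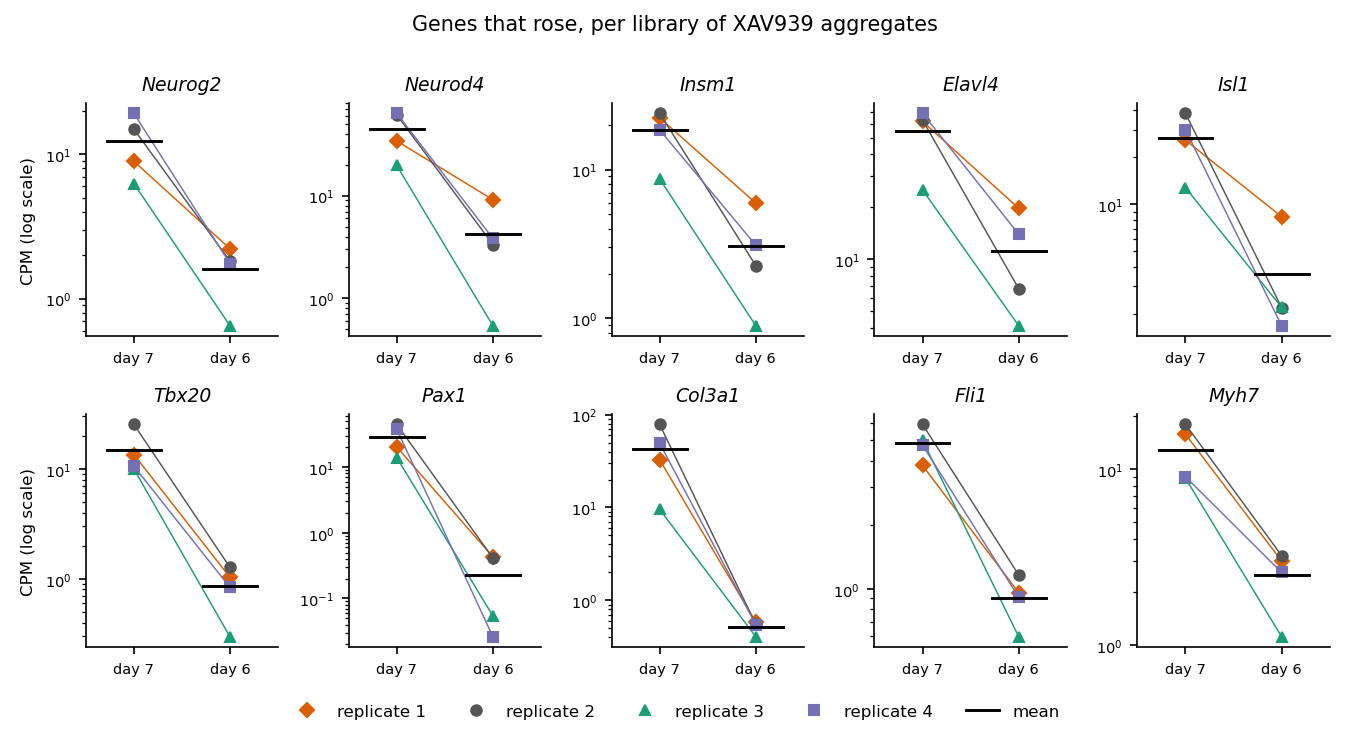
CPM on a log scale of 10 genes that rose, at day 7 (left) and day 6 (right), in XAV939 aggregates. Symbols mark replicates 1 to 4, thin lines join libraries with the same number and black bars are group means; every line runs higher at day 7, and for Neurog2, Neurod4, Insm1 and Elavl4 replicate 3 is the lowest on both days.

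Neural progenitor genes did not move together. Of 20 tested, 1 rose and 3 fell (median 0.17), and 7 rose and 5 fell with the block. Sox2 held 81.7, 72.7, 78.9 and 82.1 CPM at day 7 and 76.5, 92.7, 73.4 and 97.8 CPM at day 6 (log2 -0.11, SE 0.314, adjusted p 0.904). Sox1 held 75.1, 26.8, 40.7 and 29.2 CPM at day 7, against 102, 65.7, 60.5 and 74.2 CPM at day 6, and was called lower with the block (log2 -0.89, adjusted p 0.0207, against 0.328 without it). Pax6, a factor of the neural tube and its progenitors, held 39.9, 45.8, 86.7 and 98.3 CPM at day 7 and 22.9, 31, 21.9 and 27.2 CPM at day 6. The days did not overlap for Pax6, yet its adjusted p was 0.0724, and 0.0551 with the block. The zinc-finger gene Zic2 fell by 1.06 (SE 0.234, adjusted p 0.00301). Among 34 genes of S phase and mitosis 0 rose and 2 fell, one of them the cyclin E gene Ccne1, with 79 ± 6.3 CPM at day 7 and 111 ± 6.91 CPM at day 6 (adjusted p 0.00316). The proliferation marker Mki67 held 773, 787, 957 and 1060 CPM at day 7 and 746, 633, 515 and 772 CPM at day 6 (log2 0.43, adjusted p 0.489).

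Some genes of mesodermal derivatives rose while presomitic genes fell. Of 20 tested somite, sclerotome and dermomyotome genes 9 rose and 0 fell (median 0.71, 14 and 1 with the block). Summed over this list the days overlapped, with 365 to 508 CPM at day 7 and 314 to 505 CPM at day 6. The sum of the presomitic list was 164 to 223 CPM at day 7 and 244 to 421 CPM at day 6. Pax1 (chromosome 2, 147361925 to 147393295), a paired-box factor of sclerotome and pharyngeal pouches, had the largest rise of the called genes that averaged 5 CPM or more at day 7. It held 20.3, 44.8, 14 and 37.9 CPM at day 7, against 0.428, 0.413, 0.054 and 0.026 CPM at day 6 (log2 6.96, SE 0.775, adjusted p 6.85e-07). In libraries of days 3 to 5 its mean was at most 0.134 CPM. Uncx, a homeobox gene of the caudal part of each somite, rose by 2.12 (SE 0.382, adjusted p 0.000587), with 2.77 to 4.37 CPM at day 7 and 0.459 to 1.11 CPM at day 6. Foxc1, a forkhead factor of paraxial mesoderm already expressed at day 6, held 13.7, 22.9, 27.4 and 20.8 CPM at day 7 and 9.65, 13.4, 26.6 and 13.5 CPM at day 6. It was called with the block (log2 0.50, adjusted p 0.0141, against 0.674 without it). Without replicate 1 the rise of Pax1 was 7.60.

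Connective tissue, heart and vessel genes rose in the same step. Of 21 genes of lateral mesoderm and mesenchyme 7 rose and 0 fell, and of 25 collagen genes 7 rose and 1 fell. Col3a1, a fibrillar collagen of soft tissue and vessel walls, had 32.7, 78.6, 9.54 and 49.2 CPM at day 7, against 0.579, 0.551, 0.405 and 0.547 CPM at day 6 (log2 6.34, SE 0.605, adjusted p 1.96e-08). The day 6 libraries lay close together and the lowest day 7 library was far above them. Col1a1, of bone and skin collagen, rose by 2.62 (SE 0.415, adjusted p 6.99e-05), the proteoglycan gene Lum by 6.26 (SE 0.749, adjusted p 1.09e-05) and the forkhead gene Foxf2 by 2.93 (SE 0.447, adjusted p 5.71e-05). The mesenchyme list had 4 rises without day 6 library 3, replicate 2 or replicate 3. Of 26 cardiac and skeletal muscle genes 9 rose and 2 fell, with 4 rises without day 7 library 2 or replicate 2 and 5 without replicate 1. Isl1 and Tbx20, given above with motor neuron genes, were among the 9. Myh7, the slow and fetal cardiac myosin heavy chain, had 15.8, 18, 8.88 and 9.06 CPM at day 7 and 3, 3.22, 1.11 and 2.58 CPM at day 6 (log2 2.38, SE 0.293, adjusted p 3.1e-06). Of 24 endothelial and blood precursor genes 13 rose and 1 fell, 17 and 3 with the block. Esam, an endothelial adhesion molecule, had 3.24, 3.06, 3.22 and 2.8 CPM at day 7, against 0.731, 0.606, 0.486 and 0.417 CPM at day 6 (log2 2.45, SE 0.434, adjusted p 0.000332). The ETS factor Fli1 rose by 2.42 (SE 0.425, adjusted p 0.000351) and Gata2, a factor of blood and endothelium, by 3.04 (SE 0.529, adjusted p 0.000273). Kdr, the VEGF receptor, held 20.7, 21, 25.4 and 13.5 CPM at day 7 and 9.67, 4.02, 5.29 and 3.18 CPM at day 6 (log2 1.86, SE 0.587, adjusted p 0.0458). Its call ended without any single library of the 8 except day 6 library 1 (adjusted p 0.0532 to 0.143), and without replicate 2, 3 or 4 (0.159 to 0.212), though with the block its adjusted p was 0.00177. Without day 6 library 1 the rise of Lum was 7.81, and without replicate 1 the rises of Lum and Gata2 were 7.93 and 3.64.

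Other large rises were spread over genes of several kinds. Pyy, the gut hormone peptide YY, had 6.52, 8.06, 2.35 and 3.1 CPM at day 7, against 0.101, 0.0275, 0.027 and 0.026 CPM at day 6 (log2 6.66, SE 0.607, adjusted p 1.1e-08, and 7.37 without day 6 library 1). Bmp3, a BMP family ligand, had 15.2, 33.2, 20.1 and 40.6 CPM at day 7 and 3.45, 3.44, 1.13 and 2.06 CPM at day 6 (log2 3.43, SE 0.439, adjusted p 6.25e-06). The hyaluronan link protein Hapln1 rose 12.8-fold, the collagen receptor Ddr2 10-fold, the matrix glycoprotein tenascin C (Tnc) 9.57-fold and Cped1 10.7-fold (adjusted p 3.21e-05 to 4.84e-05). Enpp1, the enzyme that makes pyrophosphate, rose by 3.55 (SE 0.506, adjusted p 2.05e-05), and by 2.89 without replicate 2. Of 24 genes of endoderm and gut 6 rose and 1 fell, 16 and 3 with the block, and 3 rose without day 6 library 3 or 4, day 7 library 2, or replicate 2, 3 or 4. Sox17, of endoderm and endothelium, held 4.08, 3.88, 8.47 and 2.46 CPM at day 7 and 8.77, 12.2, 10.5 and 6.1 CPM at day 6. It was called lower with the block (log2 -1.06, adjusted p 0.00889, against 0.359 without it). Of the imprinted genes 2 of 24 rose and 1 fell. H19, a maternally expressed noncoding RNA, held 2050, 2050, 1490 and 1220 CPM at day 7, against 522, 564, 489 and 496 CPM at day 6 (log2 1.72, SE 0.393, adjusted p 0.0042). Magel2, a paternally expressed gene, fell by 1.09 (SE 0.245, adjusted p 0.00342).

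Some of the changed transcripts carry microRNAs. Of the genes tested, 584 contain a mature microRNA of the RefSeq table (GRCm38.p6) on their own strand, and 29 of these were called (4.97%, against 7.16% of all genes tested), 18 higher and 11 lower at day 7. No result is read from this count, and the hosts below are shown for what they encode. Poly(A) RNA measures these host transcripts, and mature microRNAs were not measured. C130071C03Rik, the host of Mir9-2 and outside the rule for named genes, was chosen after its values were seen. It held 14.2, 18.6, 6.09 and 19.6 CPM at day 7, against 1.66, 0.633, 0.891 and 2.06 CPM at day 6 (log2 3.47, SE 0.595, adjusted p 0.000237). Mir124a-1hg, the host of a miR-124 gene, had 5.55, 19.5, 4.02 and 18.2 CPM at day 7, against 1.21, 0.358, 0.081 and 0.599 CPM at day 6 (log2 4.38, SE 0.662, adjusted p 3.97e-05, and 5.07 without day 6 library 1 or 5.31 without replicate 1). Both microRNAs are known from neural tissue. Dnm3os, the host of miR-199a and miR-214 in mesenchyme and also named after its values were seen, averaged 1.49 ± 1.06 CPM at day 7 and 0.0394 ± 0.0263 CPM at day 6 (log2 5.11, SE 0.69, adjusted p 2.05e-05). Myh7 and H19, described above, hold Mir208b and Mir675. Mir124a-1hg is not among the 29, and no miR-124 sequence is shown. Of the mature sequences encoded in the other hosts, those below were chosen and the opposite arms left out. They are shown 5′ to 3′ with the seed, bases 2 to 8, in capitals.
miR-9-5p (in C130071C03Rik, chromosome 13): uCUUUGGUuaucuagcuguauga
miR-199a-5p (in Dnm3os, chromosome 1): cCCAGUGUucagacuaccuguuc
miR-214-3p (in Dnm3os, chromosome 1): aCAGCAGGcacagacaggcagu
miR-208b-3p (in Myh7, chromosome 14): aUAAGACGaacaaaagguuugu
miR-675-5p (in H19, chromosome 7): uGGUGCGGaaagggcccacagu
The 5 seeds differ from each other.

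Broad housekeeping groups moved little. All 38 tested ribosomal protein genes had negative log2 fold changes (median -0.22), and 0 were called without the block and 21 with it. Rpl4 averaged 2250 ± 107 CPM at day 7 and 2620 ± 188 CPM at day 6 (adjusted p 0.292, and 0.0151 with the block). All 10 tested mitochondrially encoded genes were also negative (median -0.31), 0 called without the block and 5 with it. mt-Co1 held 4760, 8460, 9340 and 9750 CPM at day 7 and 6050, 9830, 11700 and 11400 CPM at day 6, lowest in replicate 1 on both days. Glycolysis and hypoxia genes leaned the other way, with 23 of 28 positive, 2 higher without the block and 17 with it. The count of 2 became 6 without day 6 library 1 and 0 without day 6 library 3, day 7 library 1, replicate 3 or replicate 4. Of 23 sterol synthesis genes 0 were called with or without the block. Markers of macrophages and microglia were at or near 0, with a sum over 13 genes of 2.77 to 5.36 CPM at day 7 and 3.73 to 4.71 CPM at day 6.

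The question of what rests on replicate 1 was put by leaving out library 1 of both days. Without it 573 genes were called higher (3.39%) and 401 lower (2.38%). Of the 1209 calls 878 were kept, 331 were lost (175 higher and 156 lower) and 96 genes were gained (39 and 57), and none of the 1209 changed direction. Both fits share the libraries of replicates 2, 3 and 4, so the kept direction is no separate support. The lost calls had a median adjusted p of 0.0817 without replicate 1. Leaving out another number cost more calls: 556 of the 1209 were kept without replicate 2, 672 without replicate 3 and 539 without replicate 4. With the block, 3287 of 4463 calls were kept without replicate 1, against 2700, 3733 and 2283 without replicates 2, 3 and 4. Of the 573 rises called without replicate 1, 562 were positive within replicate 1, and of the 401 falls 384 were negative, where 8382 of all 16878 genes tested were positive. Over the genes called with all libraries, a choice that used every pair, the changes of replicate 1 were smaller, with a median log2 change over the called rises of 1.31, against 1.54 to 1.62 in the other pairs, and over the called falls of -0.77, against -1.26 to -1.14.

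Replicate 1 also stood apart in level. In 130 genes library 1 stood above the other 3 libraries by at least 1 log2 CPM on both days, and in 37 it stood below them. For replicates 2, 3 and 4 these counts were 4 and 2, 16 and 19, and 0 and 3. Of the 167 genes 18 were called in the step, and 25 without replicate 1, where 1209 and 974 of all 16878 genes tested were. These genes were picked by their levels in replicate 1, and no result is read from the counts. The sums of neuronal cytoskeleton genes, given above, and of 18 midbrain-hindbrain genes were high in it. Library 1 held a midbrain-hindbrain sum of 514 CPM at day 7, against 109 to 172 CPM in the others. At day 6 it held 623 CPM, against 154 to 372 CPM. Not every member was high: Gbx2 held 13.6 CPM in day 6 library 1, against 17.5 to 36.4 CPM in the others. The sum over 20 forebrain and eye field genes was also high in library 1. It was 119 CPM at day 7, against 37.4 to 74 CPM, and 157 CPM at day 6, against 34.9 to 56.7 CPM. Hox genes of paralogue groups 1 to 4 were low, with a sum of 123 CPM at day 7, against 279 to 348 CPM in the others, and of 149 CPM at day 6, against 251 to 399 CPM. Whether the composition of these aggregates accounts for this was not tested.

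Calls of single genes moved with it in both directions. Pax5, Pax8, Lratd1, Lix1, Rspo1 and Galnt12 were picked because their fall grew most without replicate 1. Pax5, a paired-box factor of the midbrain-hindbrain boundary, held 96.2, 1.91, 15.9 and 4.42 CPM at day 7, against 177, 19.6, 23.3 and 93.9 CPM at day 6. It was called without replicate 1 (log2 -2.62, adjusted p 0.0209, against -1.41 and 0.304 with it) or without day 7 library 1 (-3.40, adjusted p 0.00381). Pax8, of the same domain, held 9.21, 0.082, 2.1 and 0.475 CPM at day 7 and 17.3, 2.37, 2.49 and 9.4 CPM at day 6, and was also called without replicate 1 (-2.41, adjusted p 0.0245) or day 7 library 1 (-3.14, adjusted p 0.00424). In both genes every pair of libraries was lower at day 7, and day 7 library 1 overlapped the day 6 libraries. Lratd1, Rspo1, Galnt12 and Lix1 behaved alike, with log2 fold changes of -2.12, -1.62, -1.68 and -1.51 without replicate 1, where they were called (adjusted p 0.00163, 0.0033, 0.0168 and 0.0419), and of -1.17, -0.87, -0.93 and -0.63 with it, where they were not. Without day 7 library 1 alone these were -2.46, -2.34, -2.32 and -2.06, all called. With the block Lratd1 was called (log2 -1.56, adjusted p 0.0281), and Pax5, Pax8, Lix1, Rspo1 and Galnt12 were not (adjusted p 0.0745 to 0.216). Gbx2 and Egr2, of the anterior hindbrain and of its odd-numbered segments, fell with replicate 1 included, with log2 fold changes of -1.79 (SE 0.431, adjusted p 0.00693) and -2.83 (SE 0.608, adjusted p 0.00243). The call of Gbx2 ended without day 6 library 3 (adjusted p 0.0666) or replicate 3 (0.0539) and that of Egr2 without replicate 2 (0.0519), and the log2 fold change of Egr2 was -3.50 without day 7 library 3 and -3.44 without replicate 3. Over the midbrain-hindbrain list 1 gene rose and 3 fell with replicate 1 (median -0.73), and 1 rose and 6 fell without it (median -1.69). Without day 7 library 1 alone 10 fell (median -2.08), and without day 6 library 3, replicate 2 or replicate 3, 1 did.

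Some early neuronal genes showed a larger step without replicate 1. Nhlh1, Nhlh2, Ppp1r17, St18, Clvs1 and Sst were picked because their rise grew most without it. Their larger step therefore followed from the choice. Of genes not picked so, Neurod4 and Myt1 rose by 4.23 and 3.46 without it, against 3.40 and 2.78 with it. Neurog2 and Neurod1 moved less, to 3.26 and 2.76 from 2.94 and 2.52. Nhlh1 stood at 7.46 CPM in day 6 library 1, against 0.162 to 1.28 CPM in the other day 6 libraries, and its rise was 4.62 without replicate 1, against 3.01 with it. The same held for Ppp1r17 (5.01, against 3.42), St18 (4.56, against 3.21) and Clvs1 (3.78, against 2.55), all called in both fits. Without day 6 library 1 alone these 3 rose by 5.19, 4.55 and 3.93. Sst, the gene of the neuropeptide somatostatin, held 19.4, 2.02, 0.64 and 1.31 CPM at day 7 and 7.38, 0, 0.027 and 0.313 CPM at day 6. It was called without replicate 1 (log2 3.48, adjusted p 0.0126) or without day 6 library 1 (5.62, adjusted p 0.00305) and not with all libraries (1.59, adjusted p 0.459). The median of the proneural list was 2.76 without replicate 1, with 13 of 17 members higher, against 2.0 and 12 with it, and 2.73 without day 6 library 1 alone. That of the neuronal cytoskeleton list was 1.14 without replicate 1, against 0.98 with it, and that of the synapse list 0.38, against 0.54. The opposite case was Gsx1, a homeobox gene of dorsal neural progenitors and of early interneurons. It held 3.72, 0, 0.0512 and 0.336 CPM at day 7 and 0.302, 0.0551, 0.081 and 0.0521 CPM at day 6, with day 7 library 1 far above the rest. Its call (log2 3.0, SE 0.909, adjusted p 0.0355) ended without that library (0.03, adjusted p 0.994) or without replicate 1 (0.98, adjusted p 0.698). Its rise was 3.95 without day 6 library 1, and its call also ended without day 6 library 2, 3 or 4 (adjusted p 0.103 to 0.125) or without replicate 4 (0.102).

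**Figure D4:**
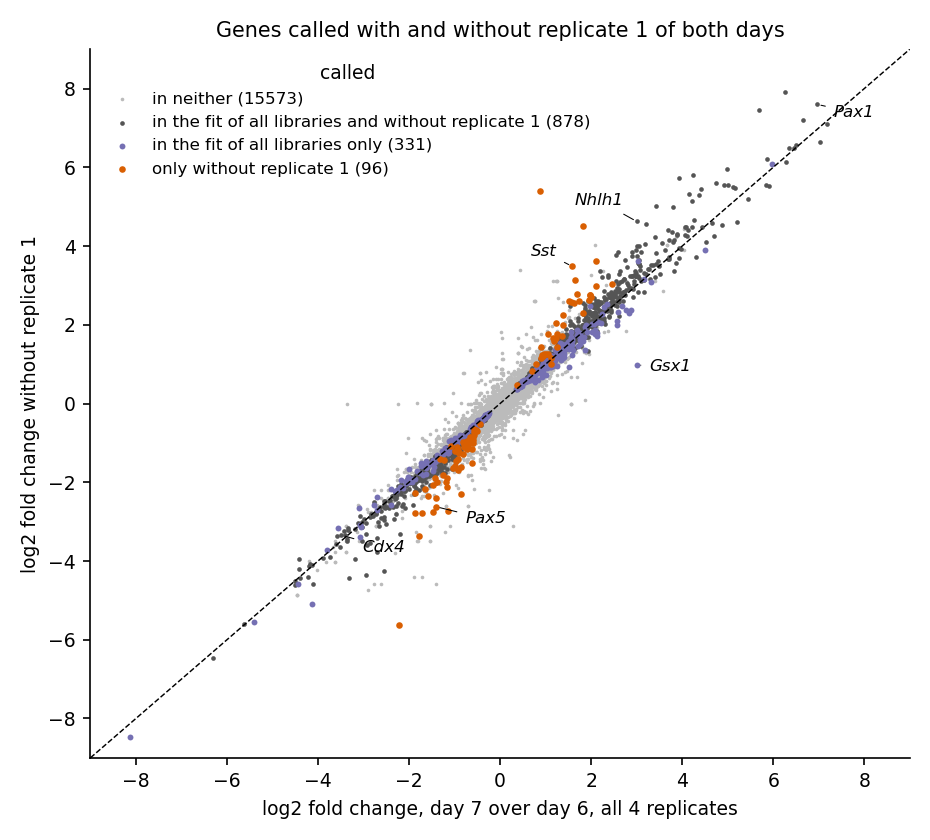
Log2 fold change of day 7 over day 6 without replicate 1 of both days against that of all 4 replicates, for 16878 genes, with the line of equality dashed. Of the points 878 were called in both fits, 331 only with all libraries and 96 only without replicate 1; Sst and Nhlh1 lie above the line, Pax5 below it, and Gsx1 falls toward 0 without replicate 1.

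The change was also read within each replicate number, and the direction of the following 4 lists was shared by all 4. The proneural median was 1.48 in replicate 1, against 2.87, 2.68 and 2.56 in replicates 2, 3 and 4, and the caudal epiblast median -1.32, against -1.72, -2.91 and -2.06. The endothelial and blood list stood at 1.41, 1.44, 1.56 and 0.95 and the pluripotency list at -0.84, -1.03, -1.05 and -1.10. Other lists differed in sign between replicates, among them Hox genes of paralogue groups 5 to 8, with positive medians of 0.49, 0.23 and 0.39 in replicates 1, 2 and 4 and a negative one of -0.72 in replicate 3.

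**Figure D5:**
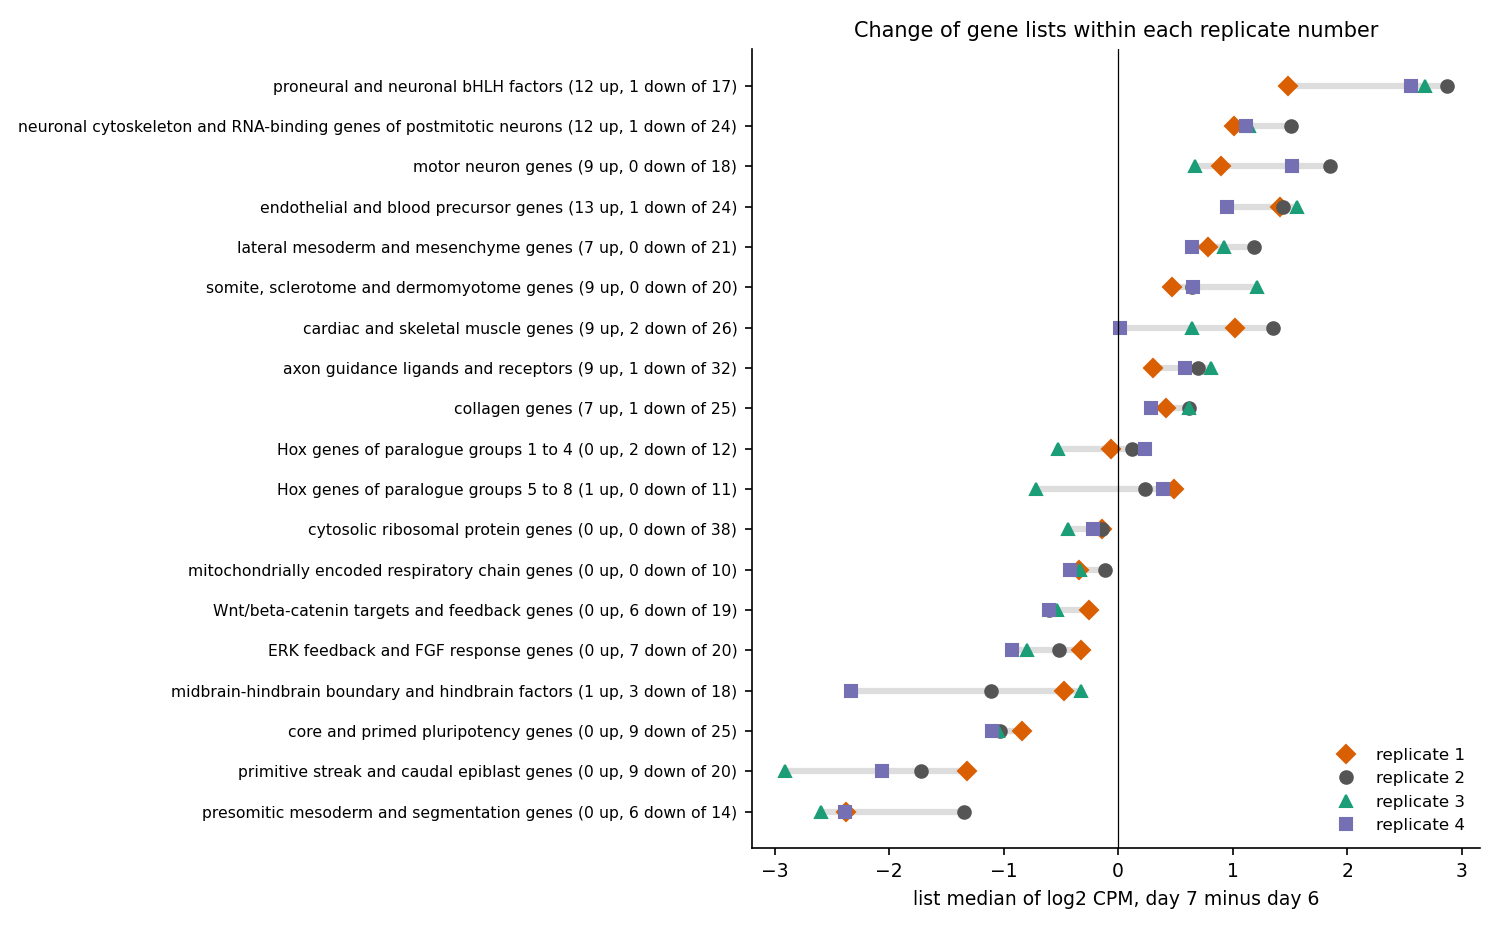
Median over each gene list of log2 CPM at day 7 minus log2 CPM at day 6, within replicates 1 to 4, with the counts of members called higher and lower beside each name. The neuronal, vessel, mesenchyme and collagen lists lie right of 0 in each replicate and the pluripotency, caudal epiblast and presomitic lists left of it, with replicate 1 the smallest change for the proneural and caudal epiblast lists.

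The same step was compared with that of untreated aggregates, to ask whether earlier exposure to XAV939 altered it. Untreated aggregates had 873 genes called higher at day 7 than at day 6 (5.17%) and 1184 lower (7.02%). Of the XAV939 rises 453 were also called there (63.9% of the 709 and 51.9% of the 873), and of the falls 389 (77.8% of the 500 and 32.9% of the 1184), with 0 genes called in opposite directions. The difference between the 2 steps was called for 0 of 16878 genes (0.0%), with 362 at an unadjusted p under 0.05, and for 0 by DESeq2, with 358. The median SE of the difference over genes called in the XAV939 step was 0.497 on the log2 scale, which limits the size of difference that these libraries can resolve. With no difference called, the rule for named genes picks none here, and the following were chosen after their values were seen. Gsx1 and St18 had differences of 3.79 (SE 1.83) and -3.27 (SE 1.08), both with an adjusted p of 1. Tbx20 rose by 4.11 with XAV939 and by 1.97 without it, a difference of 2.14 (SE 0.62, adjusted p 1). Tnc rose by 3.26 with XAV939 (1.13 without it, difference 2.12, SE 0.63, adjusted p 1), and Vgll3 fell by 3.03 with it (-1.12 without it, difference -1.91, SE 0.678, adjusted p 1). Their mean day 6 levels differed between the arms, which was not tested. Tbx20 averaged 0.858 ± 0.413 CPM in XAV939 aggregates and 6.03 ± 5.8 CPM in untreated ones. Tnc averaged 1.11 ± 0.28 and 11.8 ± 12 CPM, and Vgll3 11.7 ± 3.55 and 2.14 ± 1.92 CPM. At day 7 Tbx20 was at 14.9 ± 7.17 and 23.7 ± 8.75 CPM, Tnc at 10.7 ± 2.67 and 25.9 ± 12.4 CPM and Vgll3 at 1.43 ± 0.868 and 0.982 ± 0.112 CPM. Untreated day 6 libraries were uneven. In replicate order they held 14.1, 6.46, 2.1 and 1.49 CPM of Tbx20 and 28.7, 11.5, 4.78 and 2.08 CPM of Tnc. Untreated day 6 library 3 had 0.915% mitochondrially encoded counts, against 1.72 to 2.84% in the others.

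Some named genes overlap others in the GENCODE M21 annotation, and the strand setting of the counting is not given, so their counts may hold reads of a partner. Nkx1-2 lies within Fgfr2 on the same strand (97.2 CPM at day 7 and 82.8 CPM at day 6). On the opposite strand Nefl overlaps Nefm (127 and 35.1 CPM), Dnm3os lies in Dnm3 (2.1 and 0.592 CPM), Magel2 overlaps Gm32061 (14.8 and 7.72 CPM) and Glp1r overlaps AC165951.1 (11.6 and 12.7 CPM). Nefl and Nefm, and Dnm3os and Dnm3, had higher means at day 7 in both partners, and the partners of Nkx1-2 and Magel2 had higher means at day 7 while these 2 genes were lower. That of Glp1r had similar means on both days. None of these pairs was tested against each other.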

How the data were processed

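The authors deposited 1 table of raw counts per gene for 40 poly(A) libraries. Reads were demultiplexed with bcl2fastq 2.20.0 and mm10 was used, per the submitters' processing notes; aligner, counter and strand setting: not given in the sources used here. Gene coordinates came from GENCODE M21 (26857 of 26906 identifiers matched).

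Genes were kept by filterByExpr (minimum count 10, minimum total 15). All 40 libraries, as 10 group means, entered 1 fit with edgeR 4.0.16 in R 4.3.3 (limma 3.58.1), with TMM scaling and the robust quasi-likelihood test, and p-values were adjusted by Benjamini-Hochberg over all genes tested (threshold 0.05). SE is the absolute log2 fold change divided by the square root of F. CPM are counts scaled to TMM-adjusted library totals. Replicate numbers come from the labels, and they pair the libraries because the deviations of all 4 same-numbered pairs correlated above 0.1. Alternatives were the replicate block, DESeq2 1.42.0, other size factors and filters, fits of only the groups compared, and leaving out each library or replicate. The block fits without 1 replicate were added after seeing the data. The fit was tested on simulated data. Those libraries were drawn independently, so the test does not cover the shared deviations of same-numbered libraries.

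Named genes were the 12 largest changes each way averaging 5 CPM or more with no overlap between the days, 2 to 5 members from every list described, the genes moved most by replicate 1, and a panel of marker genes, leaving out symbols of predicted genes such as those ending in Rik; C130071C03Rik, Dnm3os and Olig3 lie outside this rule, and some genes that the rule names are not reported here. The members and the 46 gene lists were chosen with earlier results of these data known. Some genes belong to several lists, such as Gata2, Isl1, Tbx20 and Hes7, so the counts of different lists are not separate. Intervals and p-values do not cover variation beyond these libraries.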

Additional observations from a re-analysis of the deposited data

Results flagged for a closer look

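Among 204 groups of 4 values checked, 34 held a library separated from the other 3 by a gap beyond Dixon's critical value, and chance flags about 5% of groups. The genes checked include some named because leaving out replicate 1 moved them most, so the tally is a description and no test. Of the 34, 19 were library 3, 15 were library 1, and 0 were library 2 or 4.

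Library 3 stood high for caudal and presomitic genes. At day 7 it held 0.358 CPM of Hes7, 5.91 of Nkx1-2, 2.89 of Cdx1, 5.71 of Wnt8a, 1.02 of Glp1r, 4.22 of Cdx4, 4.04 of Fgf5 and 1.23 of Hoxd1. At day 6 it held 145 CPM of Nkx1-2, 59.5 of Cdx1, 22.9 of Tbx6, 51.7 of Rspo3, 6.78 of Fgf4, 7.73 of Mesp2 and 11.8 of Olig3. It stood low at day 7 for the neuronal genes Myt1 (5.78 CPM), Elavl4 (25 CPM) and Clvs1 (3.25 CPM), and at day 6 for Dnm3os (0 CPM, against 0.0504 to 0.0551 in the others).

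Library 1 stood high for several neuronal genes and for Pax5, of the midbrain-hindbrain boundary. At day 7 it held 96.2 CPM of Pax5, 12.3 of Lratd1, 28.5 of Lix1, 13.5 of Galnt12, 19.4 of Sst and 3.72 of Gsx1. At day 6 it held 8.06 CPM of Nhlh2, 7.46 of Nhlh1, 34.6 of Nefl, 8.34 of Isl1, 7.38 of Sst, 3.78 of Ppp1r17, 0.302 of Gsx1 and 0.101 of Pyy. Its share of mitochondrially encoded counts at day 7 was 1.21%, against 2.41 to 2.51% in the other libraries. The part of these differences in the step was not tested.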

How the results depend on the processing

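Against 709 rises and 500 falls, a minimum of 5 CPM in 4 libraries left 385 and 295 among 11874 genes tested, and a minimum log2 fold change of 1 left 291 falls. The replicate block gave 2484 and 1979 in the 8 libraries, and 769 falls in the fit of all libraries. The block without replicate 1, 2, 3 or 4, added after seeing the data, gave 1980, 1629, 2399 and 1417 rises and 1584, 1171, 1958 and 901 falls. Leaving out 1 library or 1 replicate number gave 365 to 801 rises and 176 to 520 falls, lowest for falls without replicate 4 or day 6 library 3 (177). DESeq2, other size factors, no filter and only the groups compared stayed within 1.5 times, though the last shared 836 calls with the 1209. The difference between arms had 0 calls in every alternative run. Of 2308 values for 101 named genes under the alternatives, 2138 kept direction and side of the threshold, 105 lost the call, 59 gained it and 6 changed sign, none of a gene called with all libraries. These were Sst (-0.55) without day 7 library 1, Hoxb9 without day 6 library 3 (0.12), without replicate 3 (0.07) and with the block besides (0.08), and Dll1 without replicate 3 (0.03, and 0.05 with the block). Over single left-out libraries and replicates these log2 fold changes ranged over -0.55 to 5.62 for Sst, -0.4 to 0.12 for Hoxb9 and -0.39 to 0.03 for Dll1. The cause was not tested. In the 8 libraries the block ended the call of Cntn2 and added those of T, Foxc1, Sox1, Hes5, Sox17, Rpl4, mt-Co1 and Lratd1 among named genes. In the fit of all libraries the block added 3 calls and ended 1 among the 101 named genes. Low counts limit folds of genes near 0 CPM on one day, such as Hes7 and Pyy.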
